A study of Mus musculus with 6 samples.

Results

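miR-103, miR-107, miR-26a and miR-26b are microRNAs that lie inside introns of protein-coding genes, and their sequences were compared here in the exosomes of RAW264.7 cells, a mouse macrophage line. The cells were kept on titanium disks with small-scale topography (micro-/nano- in the labels, 3 libraries, replicates 1 to 3) or on smooth titanium disks (3 libraries, replicates 1 to 3), and the labels describe the medium as free of exosomes. Both kinds of disk were of a titanium alloy. The topography disks had been sandblasted, acid-etched and treated with hot alkali, and the smooth disks had been polished. Exosomes, small vesicles that cells release, were collected from the culture supernatant by ultracentrifugation. All libraries come from 1 cell line, and the study's general statement that experiments were repeated independently is not tied to the sequencing libraries. The p-values thus refer to the spread between these libraries only, and part of that spread may be technical. In the limma test described below, the spread of a sequence is also estimated from other sequences at a similar level. The members were found by name, after dropping the species prefix and the suffix that describes a sequence variant, which kept 4 of the 2731 rows of the deposited table. The table holds 2704 distinct sequences, 554 rows have a microRNA name, and the others are unnamed candidates. The 4 members are the only rows whose sequence lies on the mouse hairpins of these microRNAs, and all 4 carry a rat name although they match the mouse hairpins exactly.

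A microRNA is cut from a hairpin, and the bases 2 to 8 from its 5′ end, the seed, guide it to messenger RNAs that it represses. miR-103 and miR-107 differ at their 3′ end and share their seed, and they are known to repress Dicer, the enzyme that cuts microRNA hairpins, and to affect insulin sensitivity. Their hairpins lie in genes of pantothenate kinases, which start the synthesis of coenzyme A. miR-26a and miR-26b also share a seed. They are known as regulators of the cell cycle and of the chromatin enzyme EZH2, and miR-26a has been studied in bone-forming cells. Their hairpins lie in genes of small phosphatases that act on RNA polymerase II.

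The deposited sequences are shown first, since their length decides which gene each can be assigned to. Capitals mark the seed, and the letters are those of the deposited table.

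miR-103-3p: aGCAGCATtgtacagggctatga

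miR-107-3p_R-5: aGCAGCATtgtacagggc

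miR-26a-5p: tTCAAGTAatccaggataggct

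miR-26b-5p_R+1: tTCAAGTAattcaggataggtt

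The suffix R-5 says that 5 bases are missing at the 3′ end, and R+1 that 1 base was added there. Among the 2704 distinct sequences, these were the only ones with the bases GCAGCAT or TCAAGTA at positions 2 to 8, so each seed was carried by 2 sequences. miR-26a-5p and miR-26b-5p_R+1 differ by C11T and C21T, with positions counted from 1 at the 5′ end and the base of miR-26a given first.

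The mature miR-107-3p of RefSeq (GRCm38.p6) has 23 bases and differs from miR-103-3p of the same length by G22C, with the base of miR-103 first. The sequence named miR-107-3p_R-5 has 18 bases and ends before that position. It is the start of miR-103-3p and of miR-107-3p alike, as the hairpins of RefSeq show, where capitals mark the 18 bases.

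Mir103-1: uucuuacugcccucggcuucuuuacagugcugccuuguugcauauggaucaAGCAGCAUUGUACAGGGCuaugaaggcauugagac

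Mir103-2: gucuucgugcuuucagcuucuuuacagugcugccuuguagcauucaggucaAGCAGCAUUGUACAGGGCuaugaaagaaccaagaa

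Mir107: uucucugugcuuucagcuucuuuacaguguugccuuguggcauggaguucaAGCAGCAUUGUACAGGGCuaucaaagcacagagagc

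A search of the annotated mouse transcripts (GENCODE M21, GRCm38) found the 18 bases in 3 genes, Mir103-1, Mir103-2 and Mir107, and in no other. Whether its reads came from miR-103 or from miR-107 cannot be told apart. It is therefore called the 18-nt sequence below. The full 23 bases of miR-107-3p matched none of the 2731 rows, so no value here belongs to miR-107 alone. miR-103-3p matched Mir103-1 and Mir103-2, miR-26a-5p matched Mir26a-1 and Mir26a-2, and only miR-26b-5p_R+1 matched a single gene, Mir26b. In the hairpin of Mir26b, capitals mark the 22 bases of the deposited sequence, whose last base follows the 21 bases that RefSeq gives as the mature miR-26b-5p.

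Mir26b: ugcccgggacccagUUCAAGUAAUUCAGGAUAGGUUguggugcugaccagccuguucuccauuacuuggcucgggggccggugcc

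No row matched the opposite arm of any of the 6 hairpins, which are the 5p arms of miR-103 and miR-107 and the 3p arms of miR-26a and miR-26b. The mature sequences of these microRNAs are the same in several mammals, so RNA of the mouse cells and RNA from serum cannot be told apart by sequence.

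In the GRCm38 annotation, all 6 hairpins lie on the strand of their host gene and in an intron of every coding transcript that spans them. Mir103-1 lies in intron 5 of Pank3 on chromosome 11 (35782396 to 35782481, plus strand), Mir103-2 in intron 5 of Pank2 on chromosome 2 (131288052 to 131288137, plus strand), and Mir107 in intron 5 of Pank1 on chromosome 19 (34820687 to 34820773, minus strand). The pantothenate kinase transcripts used for this numbering each have 7 exons, so the hairpin sits at the same place in the exon order of each. Mir26a-1 lies in intron 5 of Ctdspl on chromosome 9 (119031796 to 119031885, plus strand) and Mir26a-2 in intron 5 of Ctdsp2 on chromosome 10 (126995530 to 126995613, plus strand), in transcripts of 8 exons each. Mir26b lies in intron 4 of Ctdsp1 on chromosome 1 (74394310 to 74394394, plus strand), in a transcript of 7 exons. The introns range from 564 bases in Ctdsp1 to 7282 bases in Pank1. The host messenger RNAs were not measured here.

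**Figure D1:**
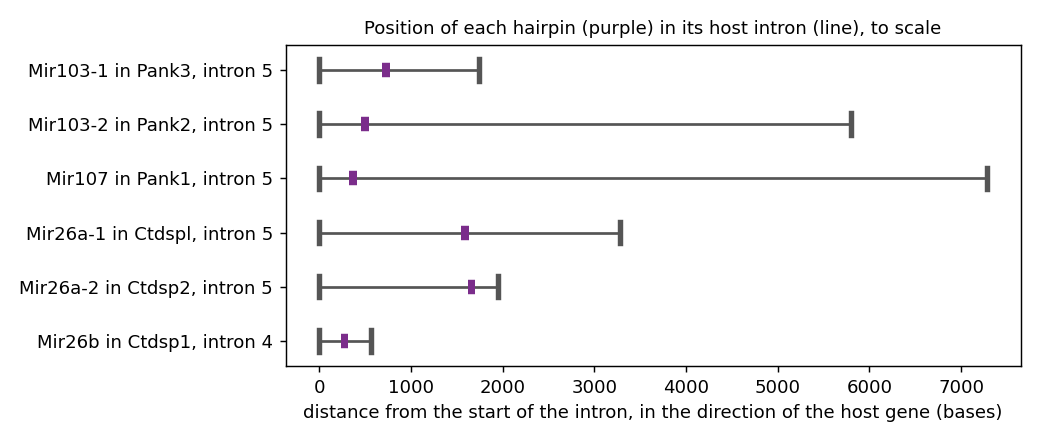
Each line is a host intron drawn to scale in bases, in the direction of the host gene, and the purple bar is the microRNA hairpin in it. The hairpins of miR-103 and miR-107 begin 326 to 688 bases after the start of introns of 1740 to 7282 bases, and that of miR-26b begins 234 bases into an intron of 564 bases.

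The values are the normalized signal that the authors made for each sequence and library. Most values of a library (87.9% to 92.6%) are multiples of 1 smallest step within 0.02 steps, taken here as the value of 1 read, which gives 163845 to 264828 reads for the small-scale topography libraries and 194510 to 604081 reads for the smooth libraries. Smooth replicate 2 is the deepest and small-scale topography replicate 1 the shallowest. The macrophage and blood lineage markers miR-146a, miR-142, miR-155, miR-223 and miR-342 were among the sequences tested and miR-150 was not. Of their 7 tested sequences, 6 had a log2 fold change below 0 and 1 above (85.7% below 0, beside 49.4% of all sequences tested, unnamed candidates included). At an unadjusted p under 0.05 (limma, described below) 1 was lower, and 0 passed after adjustment. Of all sequences tested, 2.24% reached that unadjusted p in either direction. The summed normalized value was 269 to 426 on small-scale topography, against 469 to 739 on smooth disks, with no overlap of the disks. Most of this gap lay in 1 sequence, miR-146a-5p, which averaged 190.1 on small-scale topography, against 369 on smooth disks. As a share of a library's summed value, however, the list held 0.096667% to 0.202021% on small-scale topography, against 0.199989% to 0.271372% on smooth disks. On that measure the disks overlapped. The erythroid list (miR-451, miR-144 and miR-486) summed to 90.01 to 120 on small-scale topography, against 66.2 to 110 on smooth disks. The liver list (miR-122, miR-192 and miR-194) summed to 3204 to 3581 on small-scale topography, against 2320 to 3817 on smooth disks, and the mesenchymal list (5 sequences, led by miR-199a-3p_R-1) to 542 to 780, against 685 to 815. No sequence with the mature name of a muscle marker (miR-1a, miR-133a or miR-206) was among the sequences tested. A sequence named for a human hairpin of miR-133a (mean 3.59) was tested, but it begins no RefSeq mouse mature microRNA and was not counted. The part of other cell types or of serum in the values below was not tested.

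The 4 sequences were present in every library of both disks, and none of them passed the test between the disks. miR-103-3p was the most abundant, at a mean of 684.6 over the 6 libraries, followed by the 18-nt sequence at 289.8, miR-26a-5p at 75.1 and miR-26b-5p_R+1 at 63.4. The 4 together held 0.433% ± 0.0698 of a library's summed value on small-scale topography, against 0.430% ± 0.0545 on smooth disks (SD, n = 3 each). Over the 6 libraries their mean values ranked 39, 65, 130 and 143 among the 536 distinct sequences tested, in the order given.

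**Figure D2:**
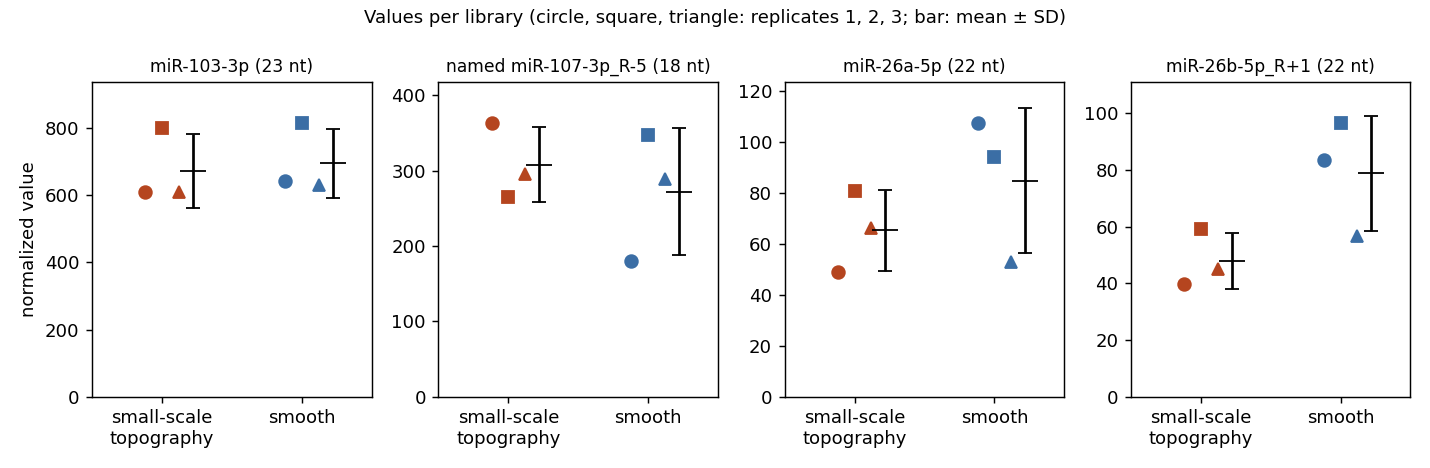
Normalized value (linear axis from 0) of each member in the 3 small-scale topography libraries and the 3 smooth libraries, with the mean and SD of each disk beside the points. The values of the disks overlap for all 4 sequences, and miR-26b-5p_R+1 shows the largest fold between the means, 48.03 on small-scale topography, against 78.8 on smooth disks.

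miR-103-3p, whose sequence matches the hairpins in introns of Pank3 and Pank2, had normalized values of 611, 801 and 609 on small-scale topography (replicates 1 to 3), against 643, 815 and 629.9 on smooth disks (replicates 1 to 3). Replicate 2 was the highest on either disk, and the other 4 libraries lay close together. The means were 673 ± 110 on small-scale topography, against 695.8 ± 103.2 on smooth disks (SD, n = 3 each), and the log2 fold change of small-scale topography over smooth was -0.05 (standard error 0.26). With limma on log2(value + 1), the adjusted p over the 536 sequences was 0.968, and the 95% interval of the fold change ran from -0.58 to 0.49 on the log2 scale, that is from 0.667-fold to 1.40-fold.

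The 18-nt sequence had normalized values of 363, 265 and 295 on small-scale topography, against 180, 347 and 289 on smooth disks. The lowest value was that of smooth replicate 1, and the values of the other 5 libraries overlapped between the disks. The means were 308 ± 49.9 on small-scale topography, against 272 ± 84.5 on smooth disks (SD, n = 3 each). The log2 fold change was 0.22 (standard error 0.31, 95% interval -0.42 to 0.85), and limma's adjusted p was 0.866. Without smooth replicate 1 the log2 fold change was -0.053, so the positive sign rests on that library.

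miR-26a-5p had normalized values of 48.9, 80.8 and 66.2 on small-scale topography, against 107.3, 94.1 and 53.02 on smooth disks. Smooth replicates 1 and 2 were the highest of all 6 libraries, while smooth replicate 3 lay within the range of small-scale topography. The means were 65.3 ± 16.0 on small-scale topography, against 84.8 ± 28.3 on smooth disks (SD, n = 3 each). The log2 fold change was -0.34 (standard error 0.45, 95% interval -1.25 to 0.57), and limma's adjusted p was 0.837. Leaving out 1 library at a time moved the fold change between -0.64, without smooth replicate 3, and -0.14, without smooth replicate 1. It was also -0.15 without small-scale topography replicate 1.

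miR-26b-5p_R+1 had normalized values of 39.9, 59.03 and 45.2 on small-scale topography, against 83.4, 96.5 and 56.6 on smooth disks. The disks overlapped only in that small-scale topography replicate 2 was above smooth replicate 3. The means were 48.03 ± 9.90 on small-scale topography, against 78.8 ± 20.3 on smooth disks (SD, n = 3 each). The log2 fold change was -0.69 (standard error 0.47, 95% interval -1.64 to 0.26), the largest in size of the 4. The unadjusted p from limma was 0.150 and the adjusted p was 0.823, and the exact permutation test over libraries gave p = 0.2 (two-sided), where 3 libraries against 3 cannot go below 0.1. The sign was negative with each library left out, from -0.91 to -0.53, and the unadjusted p was 0.0212 without smooth replicate 3 and 0.0457 without small-scale topography replicate 2. The smallest adjusted p of these 6 fits was 0.438. A linear fit of all 6 libraries to unlogged values, with no moderation of the variances, gave an unadjusted p of 0.0774 (adjusted p = 0.811).

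Of the 4 members, 0 passed an adjusted p under 0.05 from limma, against a background of 0% of the 536 sequences tested. At an unadjusted p under 0.05 the members again counted 0, against 12 sequences or 2.24% of all tested. A fit to unlogged values, with no moderation of the variances, called 0 sequences after adjustment and gave 16 at an unadjusted p under 0.05. For 0 of the 4 members the values of the disks did not overlap, against 37 sequences or 6.90% of all tested. The median log2 fold change of all 536 sequences was 0.01, and the standard errors of the members, 0.26 to 0.47, were smaller than the median of all sequences, 1.24. Other intronic microRNAs, compared below, had similar standard errors at similar means, as 0.27 at a mean of 669 and 0.48 at 73.0. limma draws the standard errors of sequences with similar means together, so this likeness is largely built in. The smaller standard errors are thus not particular to the members.

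**Figure D3:**
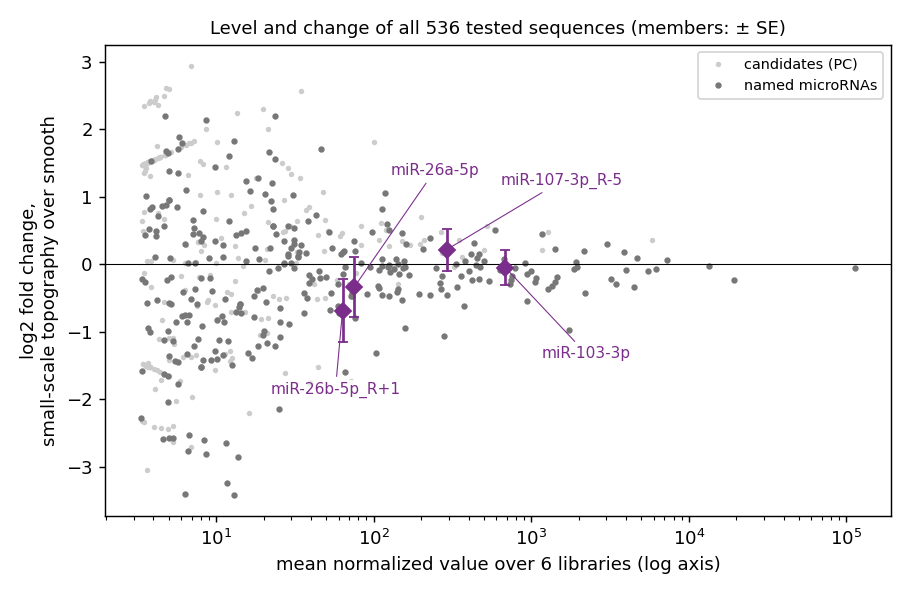
Mean normalized value over the 6 libraries (log axis) against the log2 fold change of small-scale topography over smooth for the 536 sequences tested, with candidates without a microRNA name in light grey, named microRNAs in dark grey and the 4 members as diamonds with their standard error. The members lie from -0.69 (miR-26b-5p_R+1) to 0.22 (the 18-nt sequence), inside the cloud of sequences at their level.

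Ratios between members were taken within each library, where the scaling of the library cancels. The 18-nt sequence made up 37.3%, 24.9% and 32.6% of its sum with miR-103-3p on small-scale topography, against 21.9%, 29.9% and 31.4% on smooth disks. The shares overlapped, with the highest in small-scale topography replicate 1 and the lowest in smooth replicate 1. The log2 ratio of the 18-nt sequence over miR-103-3p was -1.13 ± 0.43 on small-scale topography, against -1.40 ± 0.38 on smooth disks (SD, n = 3 each, exact permutation test, two-sided, p = 0.4). miR-103-3p was the higher of this pair in 6 of 6 libraries, by 1.68-fold to 3.56-fold.

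miR-26b-5p_R+1 made up 44.9%, 42.2% and 40.6% of its sum with miR-26a-5p on small-scale topography, against 43.7%, 50.6% and 51.6% on smooth disks. These shares rest on 69, 90 and 106 reads on small-scale topography and on 231, 409 and 91 reads on smooth disks. The exact (Clopper-Pearson) 95% binomial intervals were 32.9% to 57.4%, 31.9% to 53.1% and 31.1% to 50.5% on small-scale topography, and 37.2% to 50.4%, 45.7% to 55.6% and 40.9% to 62.3% on smooth disks. They cover counting error only, and each includes an equal split. miR-26a-5p was therefore not distinguishable from miR-26b-5p_R+1 in any single library at this depth, although it had the higher value in 4 of 6. The log2 ratio of miR-26b over miR-26a was -0.43 ± 0.13 on small-scale topography, against -0.08 ± 0.25 on smooth disks (SD, n = 3 each, exact permutation test, two-sided, p = 0.2). Smooth replicate 1, at -0.36, lay among the small-scale topography libraries, which were at -0.29, -0.45 and -0.55.

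The sum of the pair from the pantothenate kinase introns was 10.97, 7.63 and 8.11 times the sum of the miR-26 pair on small-scale topography, against 4.31, 6.09 and 8.38 times on smooth disks. Smooth replicate 3 again fell among the libraries of small-scale topography. The log2 ratio was 3.14 ± 0.28 on small-scale topography, against 2.59 ± 0.48 on smooth disks (SD, n = 3 each, exact permutation test, two-sided, p = 0.3). Adjusted over these 3 ratios between members (Benjamini-Hochberg), the p of each exact permutation test was 0.4.

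**Figure D4:**
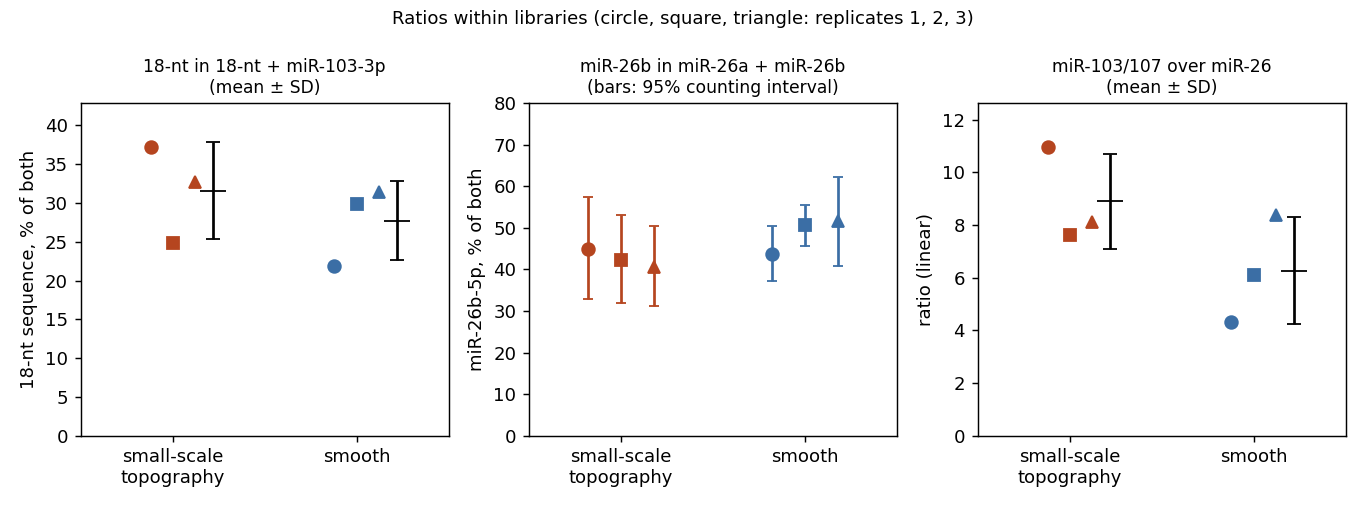
Left, the 18-nt sequence as a percent of its sum with miR-103-3p. Middle, miR-26b-5p_R+1 as a percent of its sum with miR-26a-5p, with 95% binomial intervals. Right, the sum of miR-103-3p and the 18-nt sequence over the sum of the miR-26 pair (linear ratio). Small-scale topography stands left of smooth in each panel, lines beside the points in the left and right panels are the mean and SD, and the libraries of the disks overlap in all 3.

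As sums, miR-103-3p and the 18-nt sequence reached 973, 1066 and 904 on small-scale topography, against 823, 1161 and 919 on smooth disks (exact permutation test, two-sided, p = 1). miR-26a-5p and miR-26b-5p_R+1 together reached 88.7, 140 and 111 on small-scale topography, against 191, 191 and 110 on smooth disks (exact permutation test, two-sided, p = 0.3). Smooth replicates 1 and 2 were nearly equal in this sum, and both were above all other libraries.

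The read equivalents of the members took more than 1 form. For miR-26a-5p and miR-26b-5p_R+1 every value was a whole number of reads within 0.02 reads, from 38 to 202 reads for miR-26a-5p and from 31 to 207 for miR-26b-5p_R+1. For miR-103-3p and for the 18-nt sequence the values were whole in 2 of 6 libraries, small-scale topography replicate 1 and smooth replicate 2. In the other 4 libraries they ended in a multiple of 1 sixth of a read, as 515.7 reads of miR-103-3p and 170.7 reads of the 18-nt sequence in small-scale topography replicate 2, or 579.2 reads of miR-103-3p in small-scale topography replicate 3. For these rows no counting interval is given. The sequences of both rows occur in more than 1 hairpin, but so does miR-26a-5p, and how the authors' program arrived at these parts was not tested.

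A length of 18 bases is the shortest that the authors kept. Of the 305 named sequences tested, 36 had 18 bases, and they held 1.22% of the normalized value of all 305. The 18-nt sequence ranked second by mean value among these 36, at 289.8, after a variant of miR-5124a at 1932. It was 1 of 2 among the 36 that begin more than 1 mature microRNA of RefSeq, while 32 begin none.

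**Figure D5:**
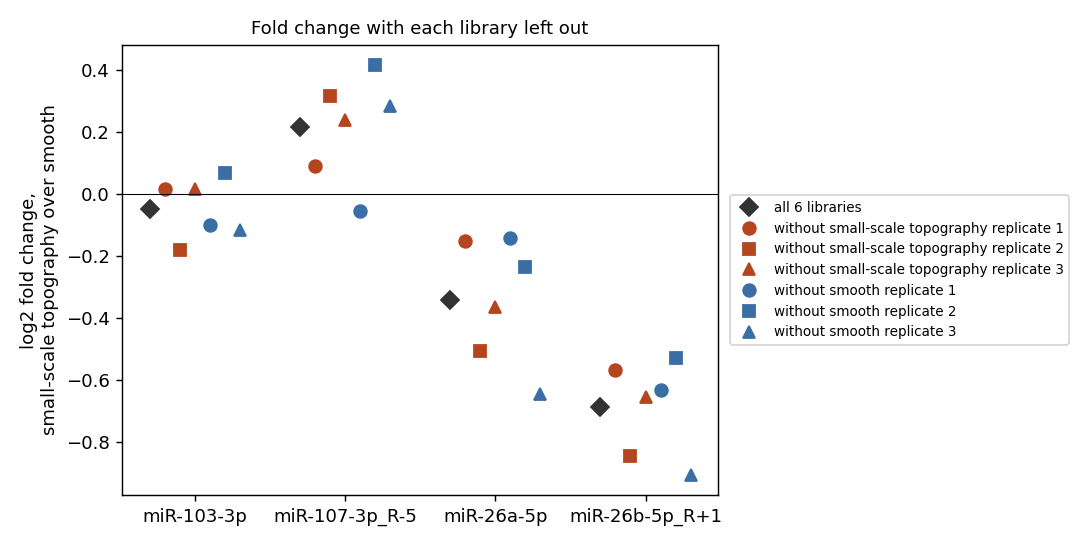
Log2 fold change of small-scale topography over smooth for each member, with all 6 libraries (black diamonds) and with each library left out in turn. miR-26a-5p and miR-26b-5p_R+1 stay below 0 in all 6 fits, miR-103-3p runs from -0.18 to 0.070, and the 18-nt sequence runs from -0.053 to 0.42.

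For each member the 3 other tested sequences with the most similar pattern over the 6 libraries are given, by Pearson's r of log2(value + 1) over 532 sequences compared. This is a description of 6 libraries that share their scaling. For miR-103-3p they were miR-7658-5p_R+2 (r = 0.986, with a mean value of only 3.39), miR-674-3p (r = 0.947) and miR-652-3p_R+1 (r = 0.938). The r of miR-7658-5p_R+2 rests on few reads. Its mean of 2.59 on small-scale topography is below the value of 5 reads in the libraries of that disk (5.25 to 7.77). For the 18-nt sequence the most similar were variants of miR-5124a (r = 0.945), miR-4485-3p (r = 0.935) and miR-1246 (r = 0.908). The first pair of these are 18-nt sequences too, and neither begins a RefSeq mouse mature microRNA. For miR-26a-5p they were miR-200a-3p (r = 0.972), miR-106b-3p_R-1 (r = 0.967) and miR-10a-5p_R-1 (r = 0.963), and 15 sequences in all had r over 0.9 with it. For miR-26b-5p_R+1 they were a variant of miR-1968-5p (r = 0.926), miR-15b-5p_R-1 (r = 0.910) and miR-362-3p (r = 0.907), the last of which is listed at 0 in every library from small-scale topography.

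miR-15b and its relatives carry the bases AGCAGC near their 5′ end, which miR-103 and miR-107 also have, although shifted by 1 base against the seed. Of 9 tested sequences of these relatives, 0 passed the adjusted threshold of limma and 0 an unadjusted p under 0.05, with 4 positive and 5 negative log2 fold changes and a median of -0.20, beside 0.01 for all sequences. The most abundant, miR-16-5p, averaged 2953 on small-scale topography, against 3416 on smooth disks (log2 fold change -0.22, standard error 0.25). miR-15b-5p_R-1 averaged 987 on small-scale topography, against 1146 on smooth disks, with a log2 fold change of -0.20 (standard error 0.25). Of 51 tested sequences of other microRNAs known from introns of protein-coding genes, 0 passed the adjusted threshold, 0 were higher and 2 lower at an unadjusted p under 0.05, namely miR-191a-5p_R-3 and miR-188-5p, which are named after their values were seen. These are 3.92% of the list, beside 2.24% of all sequences tested. The mean of miR-188-5p on small-scale topography, 3.11, is below the value of 5 reads in the libraries of that disk (5.25 to 7.77). miR-15b and miR-16 are in both lists. The median log2 fold change of the 51 was -0.14, with 16 positive and 35 negative. That is 68.6% negative, beside 49.4% of all sequences tested, unnamed candidates included. However, 4 of the 51 are listed at 0 in every small-scale topography library and were tested only through their smooth values. Several of the 51, such as let-7f and miR-30c, are also made from other loci. The 3 most abundant were miR-27b-3p at -0.23, miR-25-3p at -0.03 and miR-532-5p_1ss20TC at -0.09 (standard errors 0.27 to 0.28).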

How the data were processed

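Small RNA of exosomes was sequenced in 6 TruSeq libraries. The authors removed adapters, kept lengths of 18 to 26 nt, discarded reads matching mRNA, other RNA families or repeats, and used ACGT101-miR. Each deposited value is thus a normalized signal of 1 sequence in 1 library. Not given in the sources used here: how it was scaled, the program version, the genome build and the release of miRBase. In the copy used, 1 line was empty. Rows of identical sequence and values were counted once, and those summing to 20 or more (536) were fitted with limma (eBayes with trend) on log2(value + 1), with Benjamini-Hochberg adjustment at 0.05. Fold changes are on that scale. Sums, shares and ratios were compared by exact permutation, two-sided. Matches used RefSeq (GRCm38.p6) and GENCODE M21. Alternatives were another scaling, other filters and pseudocounts, no moderation with unlogged values, rows as deposited, summed isomiRs, single libraries left out, and a replicate block. Each microRNA had 1 row, so shares of isomiRs were taken over the pairs. The design foresaw counts or normalized values, and the second applied. Members, lists and tests were chosen with earlier results of these data known. All members are named. Beyond them, the 3 sequences most similar to each and up to 3 of the most abundant of each context list are named. Exceptions, named after their values were seen, are miR-191a and miR-188, and let-7f and miR-30c are named as having other loci. The fit was also run on simulated data, where known changes were added to shuffled residuals. That run is not used as support for any result here. Software: R 4.3.3, limma 3.58.1, Python 3.11.15, NumPy 2.4.6, pandas 2.3.3, SciPy 1.17.1, Matplotlib 3.10.9.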

Additional observations from a re-analysis of the deposited data

How the results depend on the processing

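The count of sequences called was 0 in all 16 alternatives, and the count at an unadjusted p under 0.05 ran from 7 to 38, against 12. It was 36 of 2704 without a filter. With single libraries left out it was 22, 36 and 20 without small-scale topography replicates 1, 2 and 3, and 12, 7 and 38 without smooth replicates 1, 2 and 3. The smallest adjusted p of a member in any alternative was 0.438. The log2 fold changes of miR-26a-5p and miR-26b-5p_R+1 were negative in 16 of 16 alternatives, 1 of which took differences of unlogged values. Other filters, rows as deposited, summed isomiRs, the replicate block and the fit limited to named microRNAs left both fold changes unchanged. With 1 row per microRNA and a balanced block, these settings cannot change a fold change, so they do not test its sign. With single libraries left out, that of miR-103-3p ran from -0.18 to 0.070 and that of the 18-nt sequence from -0.053 to 0.42, so both signs occurred for each. The difference of the summed value of miR-103-3p and the 18-nt sequence, 13.4, ran from -59.0 to 110 (below 0 without small-scale topography replicate 2, smooth replicate 1 or smooth replicate 3), and was -22.3 with miR-103-3p alone. That of the miR-26 pair ran from -77.4 to -36.8. The differences of the log2 ratios ran from 0.05 to 0.50 for the 18-nt sequence over miR-103-3p, from -0.50 to -0.27 for miR-26b over miR-26a, and from 0.30 to 0.78 between the pairs. The cause of these turns was not tested. The libraries are scaled nearly alike (median-of-ratios factors of 0.988 to 1.03). A fit limited to named microRNAs, which was added after seeing the data, had a count of 15 among 305.

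The labels number the libraries 1 to 3 on each disk but do not say that a number marks a shared culture. Deviations from the disk means correlated at -0.03, 0.10 and 0.02 between libraries of the same number, and 3 of 6 libraries correlated best with their own number. With the replicate number as a replicate block, 0 sequences were called, 18 had an unadjusted p under 0.05, and miR-26b-5p_R+1 was at -0.69 (adjusted p = 0.848). Depth limits the miR-26 pair most, with 31 to 207 reads per sequence and library.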
